A study of Homo sapiens with 6 samples.

Results

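The genes described here make cholesterol, move it through the cell, or set how much of it is made. They are 28 genes out of 58233 rows with an Ensembl gene identifier, and each matched 1 row. They were chosen by name from their known roles, with no threshold on these data but with earlier results of these data known. They comprise 5 genes of SREBP control (SREBF1, SREBF2, SCAP, INSIG1 and INSIG2) and 7 enzymes that lead from acetyl-CoA to farnesyl diphosphate (ACAT2, HMGCS1, MVK, PMVK, MVD, IDI1 and FDPS). A further 11 enzymes lead from there to cholesterol (FDFT1, SQLE, LSS, CYP51A1, TM7SF2, MSMO1, NSDHL, HSD17B7, EBP, SC5D and DHCR7), and 5 genes serve sterol transport, storage and export (STARD4, NPC1, NPC2, SOAT1 and ABCA1).

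Total RNA was sequenced from 6 libraries of T24, an established human cell line from a transitional cell carcinoma of the bladder. The Q63E group (n = 3) stably carries a constitutively active mutant of the small GTPase RhoC, and the VEC group (n = 3) carries the vector. Cells of both groups were transduced with lentivirus and selected with puromycin. The labels name neither the promoter of the transgene nor whether the cells are 1 clone or a pool, and they do not say that replicates were separate cultures, so p-values measure the spread between these libraries only, which may be technical.

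Cells hold their sterol level by feedback. When sterol in the endoplasmic reticulum is low, SCAP carries the SREBP transcription factors to the Golgi, where they are cut free and enter the nucleus, SREBP-2 (from SREBF2) acting mainly on cholesterol genes and SREBP-1 (from SREBF1) mainly on fatty acid genes. When sterol is high, the INSIG proteins hold SCAP back. The same mevalonate pathway also yields geranylgeranyl diphosphate, a lipid that is attached to some proteins and anchors them in membranes.

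The deposited values are normalized per gene and taken here as FPKM, fragments scaled to transcript length and library size, a scale per length on which levels of different genes can be set side by side. The depth of the libraries is unknown. Summed values ran from 726929 to 741778 in Q63E and from 746175 to 769026 in VEC libraries. RHOC, the construct's gene, had values of 1770, 1726 and 1744 in Q63E and 232, 218 and 232 in VEC libraries, so the labels hold for each library. The epithelial keratins KRT7, KRT8 and KRT18 were abundant. Of 18 epithelial and urothelial markers 8 reached a mean of 1 and were tested as described below. Of these 8, 5 rose, among them KRT19 with 161 in Q63E and 5.67 in VEC (means), and 0 fell. Over all genes tested 11.3% rose and 14% fell. GATA3 and ELF3 did not pass, but their means were lower in Q63E (0.363 and 1.57) than in VEC (1.79 and 3.52). The uroplakin UPK3A, a defining urothelial marker, was listed at 0 in all 6 libraries and UPK1A, UPK1B and UPK2 stayed below 1. Of 8 leukocyte markers 4 were listed at 0 throughout, among them PTPRC, while CD68, which other cells also express, had 9.47 to 11.1 in Q63E and 17.6 to 19.4 in VEC libraries and fell. The part of these markers in the results below was not tested. Mitochondrially encoded genes held 5.58% to 6.27% of the summed value in Q63E and 8.44% to 9.44% in VEC libraries. In bulk samples such as these, fewer cells that express a gene and less of its RNA per cell cannot be told apart.

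Promoters of several of these genes are known to carry sites for SREBP and for the factor NF-Y, and a few are shown here because the genes they belong to moved in different ways. RefSeq windows of 300 bases (250 before to 50 after a transcription start, GRCh38.p14) were found for 25 of the 28 genes. ACAT2, FDFT1 and SQLE had no window. The classical sterol regulatory element, searched as TCACNCCAC on both strands, was present in 1 of the 25 (SREBF2) and in 1.39% of 27305 genes with a window. The E-box form TCACNTGA was present in 2 of the 25 (INSIG1 and EBP) and in 4.66% of all. The NF-Y motif CCAAT was present in 18 of the 25 (72%), against 39.7% of all, and the Sp1 motif GGGCGG in 24 of the 25 (96%), against 48.3%. A gene counted if any of its windows matched, and the 27305 genes were not limited to those tested here. None of these motifs contains another, though matches on opposite strands can overlap, as in CCAATTGG of NSDHL, and a match is a description of letters, not of binding. Of the 18 genes with CCAAT, 2 rose, 6 fell and 10 did not pass the test described next, and of the 7 without, 1 rose, 1 fell and 5 did not pass. FDFT1 and SQLE, which fell, are in neither count. The first 4 stretches begin 250 bases before the RefSeq start and end just before the GENCODE start, which lies upstream of it. A further CCAAT of NSDHL, 84 bases before its RefSeq start, and one of MSMO1, 34 bases before its own, lie past the printed ends. In these stretches matches to TCACNCCAC and to CCAAT or its complement ATTGG are in capitals, and the last 2 sequences show the E-box form in capitals with 10 bases on each side.
SREBF2 (lower in Q63E), chr22:41832855-41833078, plus strand: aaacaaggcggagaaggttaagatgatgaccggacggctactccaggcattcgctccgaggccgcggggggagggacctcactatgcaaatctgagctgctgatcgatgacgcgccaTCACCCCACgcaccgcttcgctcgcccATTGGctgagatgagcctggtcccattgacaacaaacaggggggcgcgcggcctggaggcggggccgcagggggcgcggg
MVD (higher in Q63E), chr16:88663162-88663341, minus strand: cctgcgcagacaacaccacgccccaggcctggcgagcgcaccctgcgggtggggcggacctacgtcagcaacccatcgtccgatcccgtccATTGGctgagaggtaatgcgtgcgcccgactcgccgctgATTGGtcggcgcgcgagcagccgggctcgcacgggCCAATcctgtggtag
NSDHL (lower in Q63E), chrX:152830813-152830966, plus strand: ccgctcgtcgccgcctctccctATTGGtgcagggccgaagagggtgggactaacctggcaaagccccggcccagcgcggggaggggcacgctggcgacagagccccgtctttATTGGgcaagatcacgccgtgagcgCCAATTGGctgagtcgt
MSMO1 (did not pass), chr4:165327419-165327622, plus strand: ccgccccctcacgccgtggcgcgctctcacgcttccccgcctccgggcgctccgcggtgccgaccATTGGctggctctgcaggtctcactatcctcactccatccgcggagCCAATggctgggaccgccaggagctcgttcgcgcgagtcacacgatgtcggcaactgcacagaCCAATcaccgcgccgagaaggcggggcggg
INSIG1 (did not pass), chr7:155297812-155297839, plus strand: ccgggcaggcTCACGTGAtgcgggcccc
EBP (lower in Q63E), chrX:48521671-48521698, plus strand: caaacctaacTCAGGTGAaaatggcgcc

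In Q63E cells 3 of the 28 genes rose (SCAP, MVD and NPC2) and 9 fell (SREBF2, HMGCS1, PMVK, IDI1, FDFT1, SQLE, NSDHL, EBP and SOAT1), while 16 did not pass. The changes were small: the largest fall was that of IDI1, by a ratio of group means of 0.641, and the largest rise among the 3 was that of NPC2, by 1.31. A call is an adjusted p below 0.05 in limma on log2(value + 1), two-sided, with Benjamini-Hochberg adjustment over all 13346 genes with a mean value of at least 1, and all 28 genes reached that mean. Of all genes tested 25.3% were called, 11.3% higher and 14% lower, and of the 28 genes 42.9% were called, 10.7% higher and 32.1% lower. The 28 were chosen with earlier results of these data known, so these shares are only a description. The 28 genes had a median log2 difference (Q63E minus VEC throughout) of 0.02 and all genes tested one of -0.002. The median size of the difference, whatever its sign, was 0.23 for the 28 genes and 0.19 for all genes, and 1 of the 28 (3.57%) differed by at least 1.5-fold on this scale, against 11.4% of all genes. The Q63E and VEC libraries did not overlap for 18 of the 28 genes, 7 above and 11 below, while 43.9% of all genes tested did not overlap.

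Scaling moved the split between rises and falls. With median-of-ratios size factors 5 of the 28 genes rose and 9 fell, with upper quartile scaling 6 rose and 7 fell, and with the mitochondrially encoded genes left out and the rest rescaled 1 rose and 9 fell. Over all genes the last of these settings gave 1177 higher and 2309 lower, against 1510 higher and 1873 lower with the values as deposited. Of the 12 calls, those of SREBF2, IDI1, FDFT1, SQLE and NPC2 held whichever of the 6 libraries was left out. The other 7 calls were lost without at least 1 library, as given with each gene. The adjusted p-values below are those of limma.

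**Figure D1:**
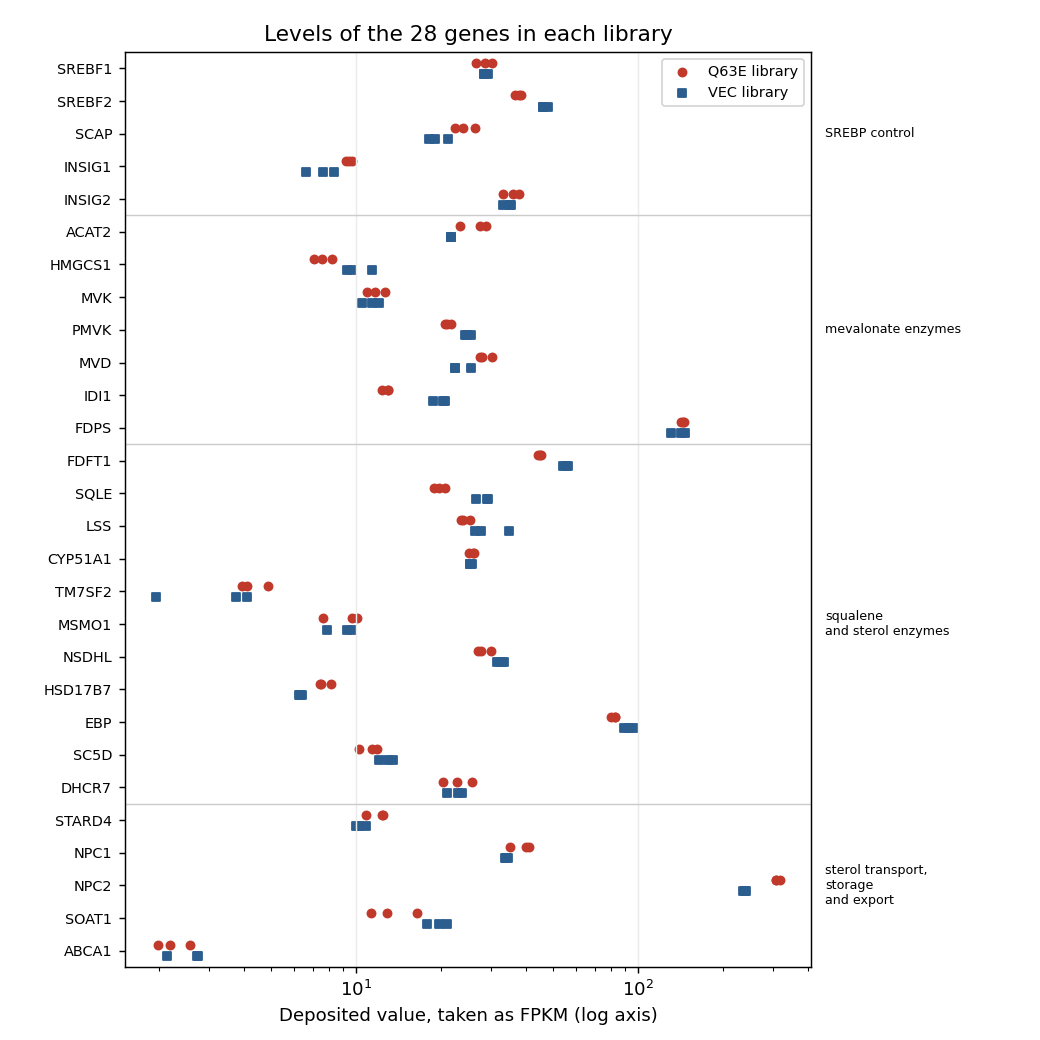
Deposited values (taken as FPKM, log axis) of the 28 genes, with 1 red circle per Q63E library and 1 blue square per VEC library, in the order of the pathway. NPC2 and FDPS lie highest and ABCA1 and TM7SF2 lowest, and the shift between groups is small beside the range between genes.

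Among the genes of SREBP control, SREBF2 fell and SCAP rose, and neither INSIG gene passed. SREBF2 (ENSG00000198911, chr22:41833079-41907308, plus strand), on the human build GRCh38 with GENCODE 29 coordinates, had values of 37.8, 38.4 and 36.65 in Q63E and of 45.8, 46.0 and 47.75 in VEC libraries. Every Q63E library lay below every VEC library, with means of 37.6 ± 0.882 and 46.5 ± 1.09 (SD, n = 3 each), a log2 difference of -0.30 (SE 0.041) and an adjusted p of 0.00340. Its neighbours on chromosome 22 were mostly lower as well: among the 50 tested genes nearest to SREBF2, 44 were lower in Q63E, and their median log2 difference was -0.45. After subtraction of that median in each library, SREBF2 had a log2 difference of 0.16 (adjusted p = 0.0763), so its sign turned. With a window of 50 genes on each side, chosen after seeing the data, it was 0.21 and passed as higher (adjusted p = 0.0202). Of the 25 genes with a window, it alone had an exact match to TCACNCCAC. Sites that differ from it at the fixed letters were not counted. This match begins 133 bases before the RefSeq start and is in capitals in the first stretch above.

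SREBF1 did not pass, with 28.5 ± 1.84 in Q63E and 28.7 ± 0.534 in VEC (SD, n = 3 each) and a log2 difference of -0.01 (95% interval -0.15 to 0.13, adjusted p = 0.9195). The ratio of SREBF2 to SREBF1 was 1.33, 1.44 and 1.21 in Q63E and 1.56, 1.62 and 1.68 in VEC libraries. These ratios did not overlap.

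SCAP (ENSG00000114650, chr3:47413694-47477126, minus strand), the sterol sensor that escorts both SREBPs, had values of 26.3, 23.9 and 22.4 in Q63E and of 18.15, 21.1 and 19.1 in VEC libraries. All Q63E libraries lay above all VEC libraries (log2 difference 0.30, SE 0.082, adjusted p = 0.0379). The call was lost without Q63E replicate 1 or 2 or VEC replicate 1 or 3 (adjusted p = 0.0911 to 0.105). SCAP lies on chromosome 3 among genes that were mostly higher in Q63E (44 of 50 neighbours, median 0.37), and after subtraction of the neighbour median its log2 difference was -0.05 (adjusted p = 0.670).

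INSIG1, which holds SCAP back and is itself an SREBP target, had 9.17, 9.44 and 9.68 in Q63E and 7.61, 6.65 and 8.33 in VEC libraries. The groups did not overlap, but the difference did not pass (log2 difference 0.29, 95% interval 0.08 to 0.51, adjusted p = 0.0581). It passed with upper quartile scaling (adjusted p = 0.0474) and with 50 neighbours on each side subtracted (adjusted p = 0.0467). Under the other 16 alternatives it did not, including whichever library was left out (adjusted p = 0.0515 to 0.150). INSIG2, which is regulated separately, averaged 35.6 ± 2.42 in Q63E and 34.5 ± 1.29 in VEC (SD, n = 3 each; log2 difference 0.04, 95% interval -0.11 to 0.19, adjusted p = 0.664). INSIG2 was thus the more abundant of both in every library, at an INSIG1 to INSIG2 ratio of 0.243, 0.286 and 0.270 in Q63E and 0.215, 0.201 and 0.238 in VEC libraries.

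In the mevalonate branch 1 of 7 enzymes rose, 3 fell and 3 did not pass, with a median log2 difference of 0.04. The falls sat at separate steps. HMGCS1, which condenses acetyl-CoA with acetoacetyl-CoA to HMG-CoA, had 7.58, 7.09 and 8.23 in Q63E and 9.31, 9.64 and 11.4 in VEC libraries. The groups did not overlap (log2 difference -0.36, SE 0.098, adjusted p = 0.0388), but the call was lost when any 1 of the 6 libraries was left out (adjusted p = 0.0545 to 0.113).

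PMVK, the kinase that makes mevalonate diphosphate, had 21.7, 21.0 and 20.6 in Q63E and 24.6, 24.3 and 25.6 in VEC libraries. It was lower in every Q63E library (log2 difference -0.23, SE 0.048, adjusted p = 0.0168), a call lost without Q63E replicate 2 or 3 or VEC replicate 3 (adjusted p = 0.0509 to 0.0580). MVD, the decarboxylase of the following step, went the other way, with 30.4, 27.4 and 27.8 in Q63E and 22.4, 22.4 and 25.4 in VEC libraries. Its rise (log2 difference 0.28, SE 0.070, adjusted p = 0.0321) was lost without any 1 library except VEC replicate 3 (adjusted p = 0.0584 to 0.0958).

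IDI1 (ENSG00000067064, chr10:1039152-1049170, minus strand), the isomerase that turns isopentenyl into dimethylallyl diphosphate, changed most among the 28 genes. It had 12.9, 12.9 and 12.3 in Q63E and 20.3, 18.6 and 20.6 in VEC libraries, with means of 12.7 ± 0.347 and 19.9 ± 1.06 (SD, n = 3 each). The groups were well apart (log2 difference -0.60, SE 0.061, adjusted p = 0.00105), and the difference stayed between -0.65 and -0.58 whichever library was left out. IDI1 lies near the end of chromosome 10, where 25 of its 29 tested neighbours were lower in Q63E, with a median of -0.38. After subtraction of that median its log2 difference was -0.22 (adjusted p = 0.0648).

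ACAT2, a cytosolic thiolase that makes acetoacetyl-CoA, had 23.2, 27.4 and 28.8 in Q63E and 21.7, 21.7 and 21.6 in VEC libraries. It was higher in each Q63E library but did not pass (log2 difference 0.27, 95% interval 0.08 to 0.47, adjusted p = 0.0533), whereas without Q63E replicate 1 it did (adjusted p = 0.0129). It also passed with a mean of at least 5 required, with median-of-ratios or upper quartile scaling, and with 10 neighbours on each side subtracted (adjusted p = 0.0268 to 0.0448). Under the other 13 alternatives it did not, with an adjusted p of up to 0.143 when another library was left out. ACAT2 overlaps TCP1 on the other strand, which averaged 105.3 in Q63E and 104.6 in VEC, and the deposited values state no strand. MVK, mevalonate kinase, and FDPS, which makes farnesyl diphosphate, did not pass. FDPS was the most abundant enzyme, with 143.6 ± 1.502 in Q63E and 139.8 ± 8.15 in VEC (SD, n = 3 each; log2 difference 0.04, 95% interval -0.07 to 0.16, adjusted p = 0.581), and MVK had a log2 difference of 0.05 (95% interval -0.14 to 0.25, adjusted p = 0.677).

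From farnesyl diphosphate onward none of the 11 enzymes rose, 4 fell and 7 did not pass, with a median log2 difference of -0.17. The falls included both enzymes that make and oxidize squalene, the entry to sterols proper. FDFT1 (ENSG00000079459, chr8:11795573-11839309, plus strand), squalene synthase, had 44.1, 45.0 and 45.1 in Q63E and 55.4, 54.1 and 56.4 in VEC libraries. The spread within each group was narrow (log2 difference -0.30, SE 0.037, adjusted p = 0.00232). FDFT1 lies in a region of chromosome 8 where 36 of 50 neighbours were lower (median -0.17 in log2). After the subtraction, in which the median is taken per library, its log2 difference was -0.08 (adjusted p = 0.323). The ratio of FDFT1 to FDPS, the enzyme before it, was 0.310, 0.310 and 0.314 in Q63E and 0.377, 0.413 and 0.399 in VEC libraries.

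SQLE (ENSG00000104549, chr8:124998497-125022283, plus strand), squalene epoxidase and a rate-limiting enzyme of the sterol branch, had 18.8, 19.6 and 20.7 in Q63E and 26.5, 29.4 and 28.97 in VEC libraries. Its means were 19.7 ± 0.918 in Q63E and 28.3 ± 1.57 in VEC (SD, n = 3 each), a log2 difference of -0.50 (SE 0.062) and an adjusted p of 0.00227. SQLE lies on the long arm of chromosome 8, away from FDFT1, and 33 of its 50 neighbours were lower (median -0.14). With the neighbour median subtracted it remained lower, by a log2 difference of -0.38 (adjusted p = 0.0112). SQLE and NPC2 were the 2 of the 12 called genes whose call held under every alternative tried.

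The other 2 enzymes that fell, NSDHL and EBP, had smaller differences than FDFT1 and SQLE. NSDHL, a sterol dehydrogenase encoded on the X chromosome, had 27.6, 30.1 and 27.0 in Q63E and 32.55, 33.5 and 31.5 in VEC libraries (log2 difference -0.20, SE 0.056, adjusted p = 0.0445). Its groups did not overlap, but the call was lost without any 1 library except Q63E replicate 2 (adjusted p = 0.0740 to 0.123). EBP, the X-linked sterol isomerase, had 80.3, 83.0 and 82.6 in Q63E and 96.9, 92.5 and 88.6 in VEC libraries (log2 difference -0.17, SE 0.043, adjusted p = 0.0289). Its call was lost without any 1 library except VEC replicate 3 (adjusted p = 0.0628 to 0.0889). The neighbours of these X-linked genes had median log2 differences just above 0 (0.04 for NSDHL and 0.08 for EBP), and with them subtracted the differences were -0.25 (adjusted p = 0.0492) and -0.24 (adjusted p = 0.0150). With 10 neighbours on each side NSDHL no longer passed (adjusted p = 0.154), and EBP did (adjusted p = 0.0215).

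Among the 7 that did not pass, CYP51A1, the lanosterol demethylase, had the narrowest interval, with 25.8 ± 0.559 in Q63E and 25.4 ± 0.233 in VEC (SD, n = 3 each; log2 difference 0.02, 95% interval -0.09 to 0.12, adjusted p = 0.785). LSS, which folds squalene epoxide into lanosterol, had 23.8, 25.4 and 23.5 in Q63E and 26.4, 27.8 and 34.7 in VEC libraries. Its groups did not overlap, VEC replicate 3 lay far above the other two VEC libraries, and the difference did not pass (log2 difference -0.27, adjusted p = 0.104). Without VEC replicate 3 its log2 difference was -0.16 (adjusted p = 0.144). SC5D, lathosterol oxidase, was likewise lower in every Q63E library without passing (log2 difference -0.19, 95% interval -0.38 to -0.01, adjusted p = 0.122). Neighbours of both were lower too, with medians of -0.23 each in log2.

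HSD17B7, which reduces the 3-keto sterol, was higher in every Q63E library, with 7.46, 7.50 and 8.13 in Q63E and 6.28, 6.44 and 6.33 in VEC libraries. It did not pass with values as deposited (log2 difference 0.24, adjusted p = 0.0535) but lay close to the threshold. It passed with median-of-ratios factors (adjusted p = 0.0476), upper quartile scaling (0.0365), limma without trend (0.0272) and the neighbour median subtracted (log2 difference 0.30, adjusted p = 0.0357). With 10 and 50 neighbours on each side it passed too (adjusted p = 0.0395 and 0.0322). Under the other 12 alternatives it did not, including whichever library was left out (adjusted p = 0.102 to 0.150). Its pseudogene HSD17B7P2 averaged 3.67 in Q63E and 4.11 in VEC, and reads of such copies can be shared. The methyl oxidase MSMO1 (log2 difference 0.02, 95% interval -0.27 to 0.32, adjusted p = 0.917) and DHCR7, which reduces 7-dehydrocholesterol to cholesterol (0.02, 95% interval -0.20 to 0.25, adjusted p = 0.890), overlapped between groups. TM7SF2, a sterol reductase, was low, with 4.88, 3.92 and 4.09 in Q63E and 3.74, 4.11 and 1.95 in VEC libraries, and its interval was the widest (-0.19 to 0.88 in log2, around a difference of 0.35, adjusted p = 0.302). Without VEC replicate 3 that difference was 0.10 (adjusted p = 0.622). It overlaps the far more abundant VPS51 on the same strand.

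**Figure D2:**
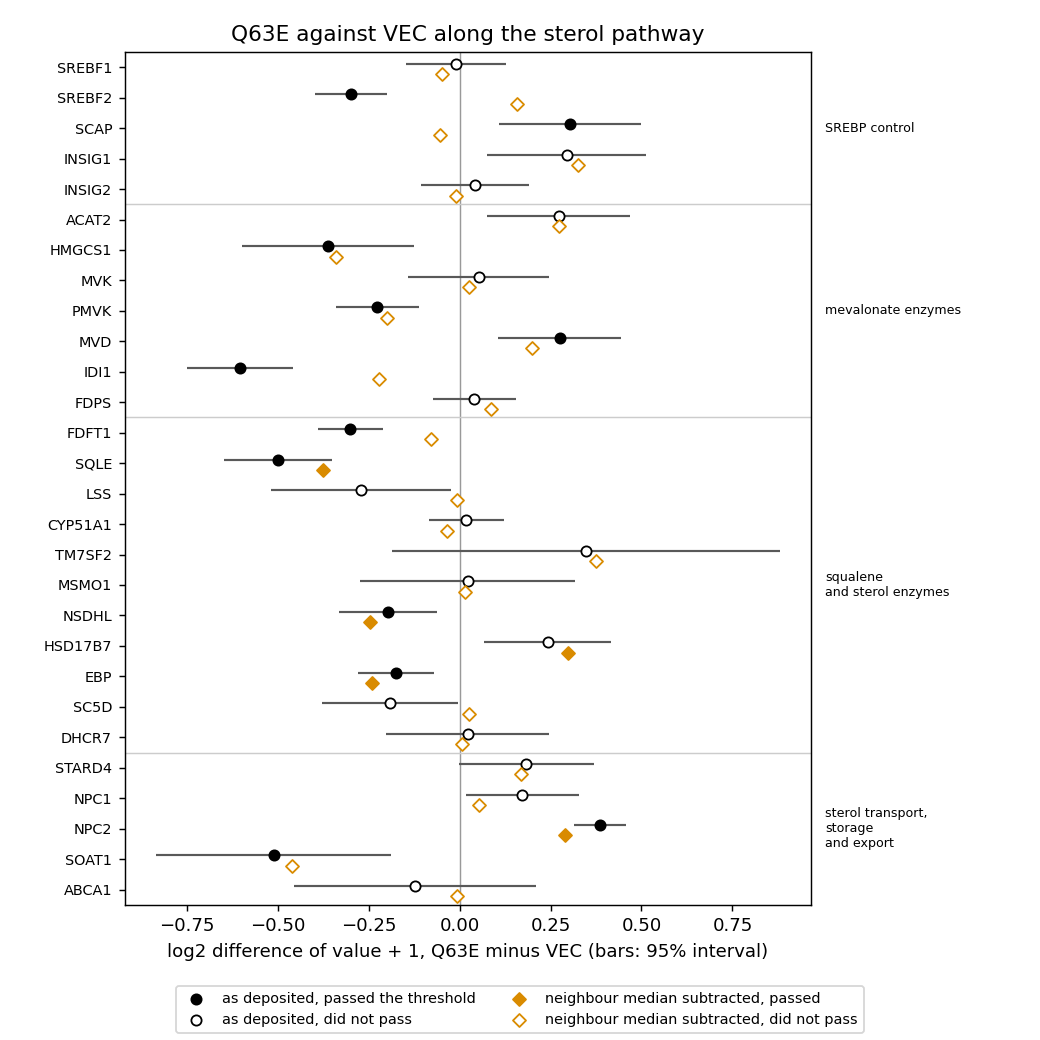
Log2 difference of value + 1 (Q63E minus VEC, horizontal axis) for the 28 genes in pathway order: circles show values as deposited with their 95% intervals, diamonds the same after subtraction of the neighbour median, and filled symbols passed the threshold. SREBF2, SCAP, INSIG2, CYP51A1 and SC5D change side between the circle and the diamond, and SQLE, NSDHL, EBP and NPC2 are filled in both.

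Of the 5 genes of transport, storage and export, NPC2 rose and SOAT1 fell. NPC2 (ENSG00000119655, chr14:74476192-74494177, minus strand), the soluble lysosomal protein that hands cholesterol to NPC1, was the most abundant of the 28 genes, with 308.7, 308.3 and 317.9 in Q63E and 235.0, 238.9 and 240.9 in VEC libraries. Its groups lay far apart for their spread, with a ratio of means of 1.31, a log2 difference of 0.39 (SE 0.030) and an adjusted p of 0.000434. Its neighbours on chromosome 14 had a median of 0.08, and with that subtracted the difference was 0.29 (adjusted p = 0.00289). Its membrane partner NPC1 had 40.0, 40.9 and 35.1 in Q63E and 34.6, 33.65 and 34.1 in VEC libraries. NPC1 did not pass (log2 difference 0.17, 95% interval 0.02 to 0.33, adjusted p = 0.0994) except without Q63E replicate 3 (adjusted p = 0.0234).

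SOAT1, which esterifies cholesterol for storage, had 12.8, 11.2 and 16.4 in Q63E and 19.7, 17.8 and 20.9 in VEC libraries. Each Q63E library lay below each VEC library, though Q63E replicate 3 was near the lowest of VEC. The log2 difference of -0.51 (SE 0.135, adjusted p = 0.0353) lost its call without any 1 library except Q63E replicate 3 (adjusted p = 0.0579 to 0.109). Without Q63E replicate 3 the difference was -0.65 (adjusted p = 0.0125). STARD4, a cytosolic sterol carrier, averaged 11.9 ± 0.926 in Q63E and 10.3 ± 0.441 in VEC (SD, n = 3 each; adjusted p = 0.134). ABCA1, the exporter that loads cholesterol onto apolipoprotein A-I, had the lowest level of the 28, with 2.18, 2.57 and 1.99 in Q63E and 2.73, 2.14 and 2.74 in VEC libraries, and the groups overlapped (log2 difference -0.12, 95% interval -0.46 to 0.21, adjusted p = 0.561).

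Added up, the 18 enzymes held a summed value of 525.2, 532.9 and 536.75 in Q63E and 574.0, 557.7 and 574.5 in VEC libraries. Each Q63E sum was below each VEC sum. Over all 28 genes the order was the other way, with 1039, 1040 and 1056 in Q63E and 1012, 995.1 and 1023 in VEC libraries, a sum in which NPC2 is the largest entry. By library, the median deviation of the enzymes from their VEC means was -0.09, -0.12 and -0.10 in Q63E and 0.002, -0.0004 and 0.02 in VEC on the log2 scale. For all genes tested it was -0.01, -0.004 and -0.0001 in Q63E libraries. The enzymes did not move as 1 group: 9 had a log2 difference below 0 and 9 above 0. Their median log2 difference was -0.08, and -0.0003 with the neighbour median subtracted.

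Position on the chromosome moved with several of these results. Over the 28 genes, the log2 difference of a gene and the median of its neighbours (up to 25 tested genes on each side) correlated at r = 0.63, and over all genes tested at r = 0.30. These are descriptions across genes measured in the same 6 libraries. For 5 of the 28 genes the neighbour median was at least 0.2 in size: SREBF2, IDI1, LSS and SC5D lie among lowered genes and SCAP among raised ones. Of these 5 genes 3 were called, and 0 after the neighbour median was subtracted in each library. Of the other 23 genes 9 were called, and 5 after the subtraction, 4 of them called both times and 1 (HSD17B7) only after it. FDFT1, HMGCS1, PMVK, MVD and SOAT1 lost their calls. After the subtraction SOAT1 had -0.46 (adjusted p = 0.0582 in limma) and HMGCS1 -0.34 (0.0718). PMVK had -0.20 (0.0560) and MVD 0.20 (0.113), so these 4 differences kept their sign. Over the 28 genes the subtraction left 2 higher (HSD17B7 and NPC2) and 3 lower (SQLE, NSDHL and EBP), where 17.4% of all genes were called, 8.27% higher and 9.11% lower. The subtraction treats the neighbour median as known, without its own error.

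**Figure D3:**
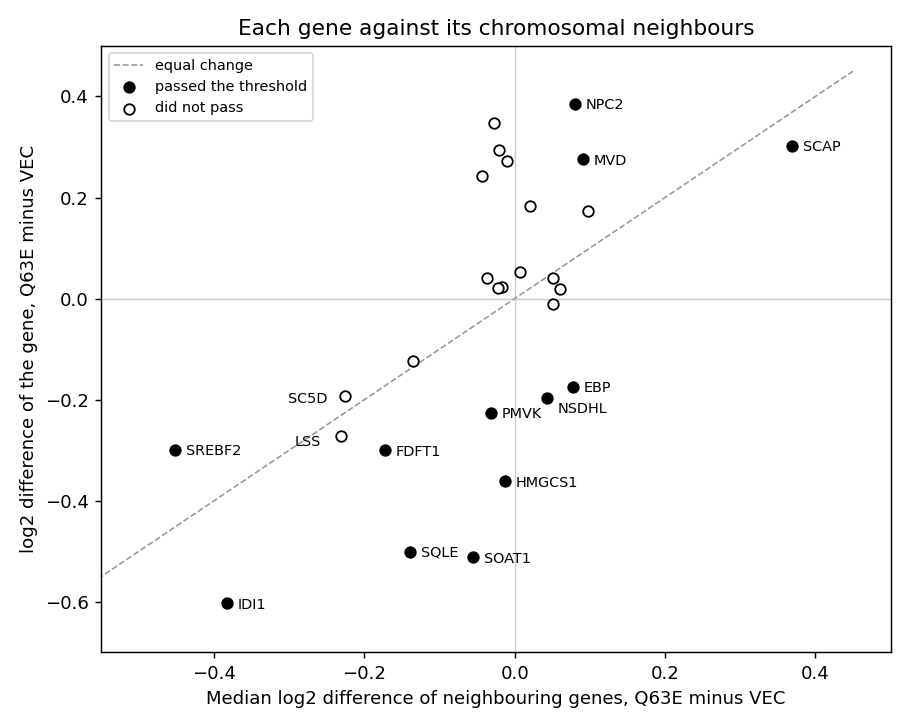
Log2 difference of each of the 28 genes (vertical axis, Q63E minus VEC) against the median log2 difference of its tested neighbours on the chromosome (horizontal axis), with filled circles for genes that passed the threshold and a dashed line of equal change. SREBF2 at -0.45 and SCAP at 0.37 on the horizontal axis lie at its ends, while SOAT1, HMGCS1, PMVK, NSDHL and EBP fell among neighbours with medians near 0.

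Around these genes, 50 others of the pathway were listed: regulators of SREBP cleavage and INSIG turnover, prenylation, lipoprotein uptake, the LXR pathway, and sterol transport within the cell. Of them 43 reached a mean of 1 and were tested, 7 rose, 8 fell and 28 did not pass, with a median log2 difference of -0.06. Called genes were thus 15 of 43, beside the 25.3% over all genes.

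Of 8 genes of SREBP cleavage and INSIG turnover 3 rose and 2 fell. SPRING1, needed for the activity of the Golgi protease that makes the first cut in SREBP, had 15.1, 15.3 and 16.5 in Q63E and 11.6, 12.1 and 12.2 in VEC libraries. It rose by a log2 difference of 0.36 (SE 0.061, adjusted p = 0.00756), a call that held under every alternative. ERLIN2, a partner in the degradation of sterol-regulated proteins, had 5.95, 7.62 and 7.98 in Q63E and 10.4, 9.91 and 10.8 in VEC libraries. Its fall (log2 difference -0.48, SE 0.111, adjusted p = 0.0225) was lost without VEC replicate 1, 2 or 3 (adjusted p = 0.0525 to 0.0771), and its neighbours on chromosome 8 had a median of -0.28, after whose subtraction it had -0.14 (adjusted p = 0.396).

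The isoprenoid branch and prenylation enzymes had 1 rise and 3 falls among 13, with a median log2 difference of -0.18. GGPS1, which makes geranylgeranyl diphosphate, had 8.75, 12.4 and 10.6 in Q63E and 14.98, 16.4 and 13.95 in VEC libraries. It fell by a log2 difference of -0.49 (SE 0.126, adjusted p = 0.0337), a call lost without any 1 library except Q63E replicate 2 (adjusted p = 0.0630 to 0.1001). FNTB, the beta subunit of farnesyltransferase, had 17.4, 14.7 and 15.75 in Q63E and 11.3, 11.3 and 13.3 in VEC libraries. Its rise (log2 difference 0.39, SE 0.092, adjusted p = 0.0239) was lost without Q63E replicate 1 or 3 or VEC replicate 1 or 2 (adjusted p = 0.0678 to 0.0747). PDSS1, which builds the tail of coenzyme Q, had 6.96, 7.53 and 7.56 in Q63E and 12.5, 13.8 and 9.51 in VEC libraries. Its fall (log2 difference -0.62, SE 0.132, adjusted p = 0.0175) was lost without any 1 Q63E library or VEC replicate 1 (adjusted p = 0.0514 to 0.0619), and with its lowered neighbours (median -0.44) subtracted it had -0.12 (adjusted p = 0.559).

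Lipoprotein uptake genes had 1 rise and 1 fall among 8. SCARB1, a receptor for high-density lipoprotein, had 27.3, 22.6 and 28.97 in Q63E and 30.5, 36.5 and 38.1 in VEC libraries, and its fall (log2 difference -0.40, SE 0.117, adjusted p = 0.0486) was lost without any 1 library except VEC replicate 1 (adjusted p = 0.0591 to 0.139). The LXR group, whose receptors answer to oxysterols and induce export genes such as ABCA1, had 0 rises and 2 falls among 4 tested of 9. RXRA, the partner receptor, had 23.8, 24.7 and 25.9 in Q63E and 32.02, 32.45 and 31.9 in VEC libraries. The groups lay well apart (log2 difference -0.36, SE 0.048, adjusted p = 0.00282), and with the neighbour median of -0.18 subtracted the difference was -0.17 (adjusted p = 0.0497), a call lost with 10 neighbours on each side (adjusted p = 0.0580). Of 10 tested sterol transport genes 2 rose and 0 fell. OSBPL2, an oxysterol-binding-protein relative, had 27.65, 28.3 and 25.9 in Q63E and 19.9, 22.7 and 21.6 in VEC libraries (log2 difference 0.34, SE 0.065, adjusted p = 0.0121), a call that held under every alternative.

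**Figure D4:**
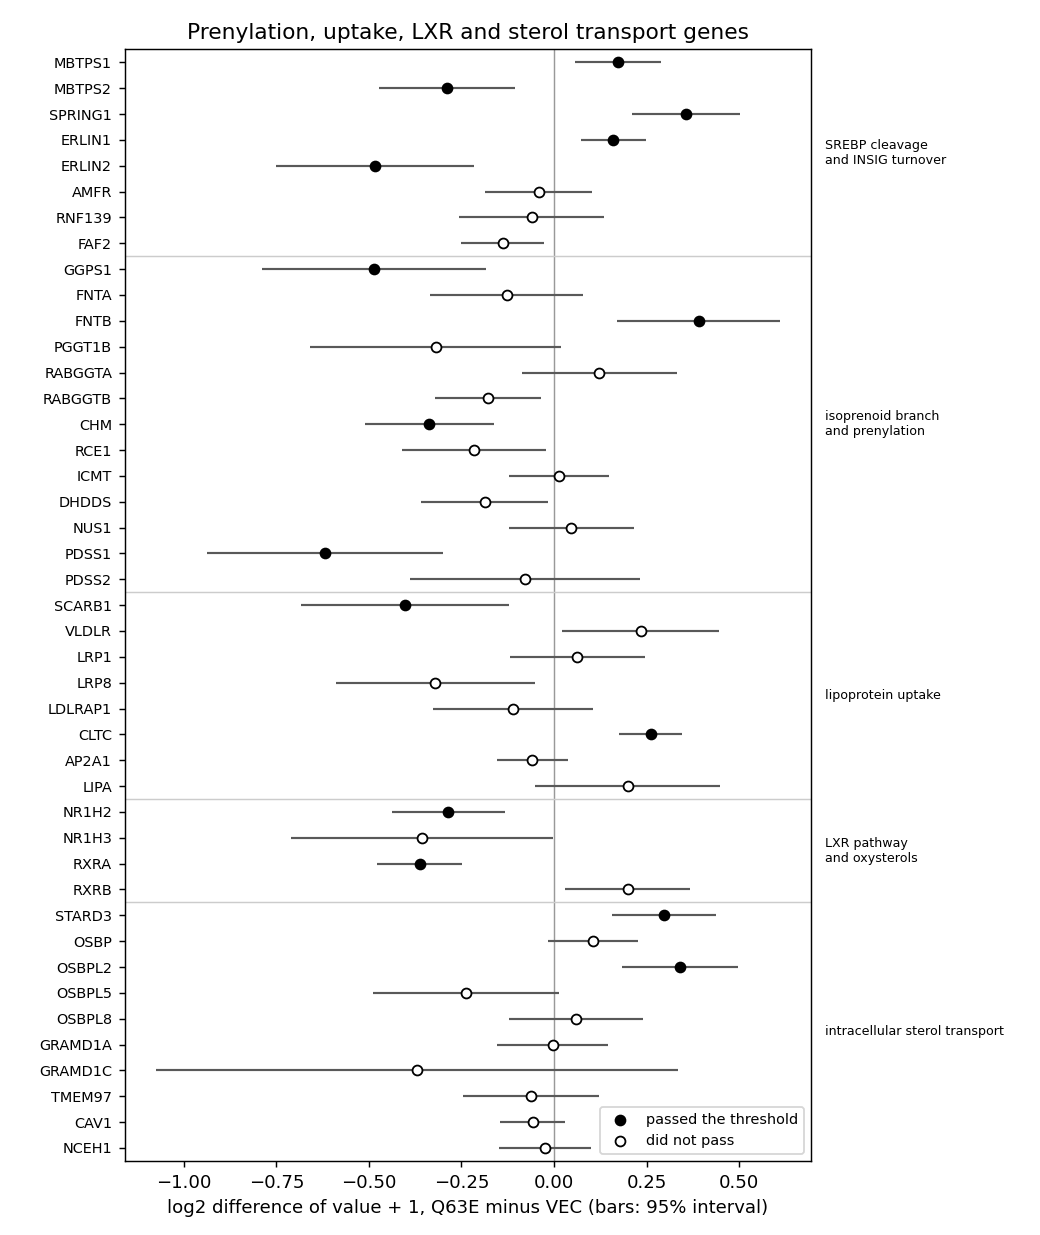
Log2 difference of value + 1 (Q63E minus VEC) with its 95% interval for the 43 tested genes of related functions, with filled circles for those that passed the threshold. Rises and falls are mixed in the first 3 groups; PDSS1 lies lowest among the filled circles and FNTB highest.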

How the data were processed

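Per the submitters' processing notes, the tools were HISAT2 2.1.0 and Bowtie2 and the build was GRCh38.p10. Each library's deposited table lists 58882 rows, of which 649 unnamed assembled loci were left out. The deposited values are taken as FPKM, although no header or label names the unit. How the authors counted, annotated and filtered is not given in the sources used here. Sequencing depth is unknown, so there are no counting intervals.

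Genes whose mean over the 6 libraries reached 1 were tested on log2(value + 1) with limma 3.58.1 in R 4.3.3 (lmFit, eBayes with trend) on group alone. Only the main limma fit was tested on simulated data, in which genes varied independently. The neighbour subtraction and the other alternatives were not. Symbols came from a gene table (57392 identifiers matched) and coordinates from GENCODE 29 on GRCh38. For the neighbour median, each library's deviations from the VEC mean were taken over the 25 tested genes on each side and their median subtracted before the fit. All 28 members are named, and of the other pathway genes the 8 called ones with the largest change. Members and lists were chosen with earlier results of these data known. Alternatives covered pseudocounts, filters, scaling, the trend, a replicate block, neighbours and leaving out each library.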

Additional observations from a re-analysis of the deposited data

How the results depend on the processing

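Depth is unknown, so no limit of detection can be given, and genes near the mean minimum of 1 are the least certain. The replicate numbers are no pairing: deviations from the group means correlated between same-numbered libraries at -0.0419, -0.00866 and -0.0249, and no library correlated best with its own number. With the replicate block 942 of all genes were higher and 1266 lower. Of the 28 genes 1 was then higher and 6 were lower, against 9 lower in the main setting. Of the other pathway genes 4 were higher and 5 lower.

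With no filter on low values 1 of the 28 genes was higher and 6 were lower, and 4 other pathway genes were lower. In limma without trend 2 of the 28 genes were higher and 6 lower. Of the 28 genes, 5 were higher with median-of-ratios size factors, 6 with upper quartile scaling and 1 with the mitochondrially encoded genes left out. With the neighbourhood median subtracted (25 genes each side) 1216 of all genes were lower, 3 of the 28 were lower, and of the other pathway genes 3 were higher and 4 lower. Windows of 10 and 50 genes each side, chosen after seeing the data, gave 1137 and 1234 of all genes lower and 2 and 3 of the 28 lower. Of the other pathway genes 2 and 4 were lower with these windows, and with 50 genes 2 were higher. Leaving out each library in turn gave 992 to 1138 of all genes higher and 1314 to 1483 lower, and of the 28 genes 1 to 3 higher and 5 lower each time. Of the other pathway genes it gave 4 to 6 higher and 2 to 5 lower. The cause of these moves was not tested.

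The log2 difference changed sign for 11 of the 28 genes. With the neighbourhood median subtracted (25, 10 and 50 genes each side) SREBF2 had 0.16, 0.16 and 0.21, the last with an adjusted p of 0.0202 in limma. SCAP had -0.0539, -0.0750 and -0.0576, and INSIG2 -0.0108, -0.0706 and -0.00168. With 25 and 10 genes CYP51A1 had -0.0357 and -0.0270 and SC5D 0.0252 and 0.0615. With 10 genes DHCR7 had -0.0488, and with 50 genes LSS had 0.0427 and ABCA1 0.0107. With the mitochondrially encoded genes left out INSIG2 had -0.00588, FDPS -0.00836, CYP51A1 -0.0283, MSMO1 -0.0222 and DHCR7 -0.0251, and with upper quartile scaling SREBF1 had 0.0195. Leaving out 1 library turned SREBF1 (-0.0543 to 0.0355), INSIG2 (-0.00251 to 0.0929), MSMO1 (-0.0550 to 0.134), DHCR7 (-0.0607 to 0.102) and FDPS (-0.00588 to 0.0769). With the exception of SREBF2 at 50 genes each side, none of these reversed values passed the threshold.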

Other observations

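Of the 50 other pathway genes 7 stayed below a mean of 1 and were not tested, and 2 of them, named after their values were seen, did not overlap between groups. Of all genes tested 43.9% did not overlap, but those have a mean of at least 1. No such share was computed for genes below it. MYLIP, a ubiquitin ligase that lowers lipoprotein receptors and is induced through LXR, had 0.05, 0.13 and 0.18 in Q63E and 0.85, 0.62 and 0.42 in VEC libraries. GRAMD1B, which carries cholesterol from the plasma membrane to the endoplasmic reticulum, had 0.08, 0.06 and 0.07 in Q63E and 0.68, 0.35 and 0.38 in VEC libraries. With no filter on low values limma gave log2 differences of -0.53 for MYLIP and -0.45 for GRAMD1B. No p-value is given, since both are near the floor and were named after their values were seen. CYP7B1 was listed at 0 in all 6 libraries, and ABCG1, the LXR-induced exporter, in 5 of 6.

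MMAB, which shares its start region with MVK on the other strand and is named after its values were seen, averaged 24.7 in Q63E and 18.3 in VEC, while MVK averaged 11.7 and 11.3.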
